A study of Mus musculus with 8 samples.

Results

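Liver RNA was measured here for 9 genes of amino acid catabolism, *Tat*, *Tdo2*, *Hpd*, *Hgd*, *Fah*, *Sds*, *Gpt*, *Gpt2* and *Got1*, out of 19267 genes in the deposited count table. They were taken by name as enzymes that break down tyrosine, tryptophan and serine or move amino groups in the hepatocyte, and *Gpt* and *Got1* were included because they encode the cytosolic enzymes assayed in serum as ALT and AST. All 9 were in the table and all 9 passed the filter on low counts, which left 13993 genes for testing. The RNA-seq libraries came from livers of male C57BL/6 mice aged 9 weeks, with 2 libraries in each of 4 groups. WT Control and WT EtOH were wild-type mice, for which the study used Cre mice. Elf4-/- Control and Elf4-/- EtOH were Elf4fl/fl-Villin-Cre mice, in which the villin promoter drives Cre in the intestinal epithelium, so that ELF4, an ETS-family transcription factor, was deleted in the gut lining and not in the liver. All mice were pair-fed a Lieber-DeCarli liquid diet for 21 days, with 5% (w/v) alcohol in the EtOH groups and isocaloric maltose dextrin in the Control groups. Neither the labels nor the methods say that the 2 libraries of a group came from separate animals, so the p-values measure the spread between these libraries, which may be technical.

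The liver is the main site where excess amino acids are broken down. A transaminase moves the amino group of an amino acid to a keto acid, the nitrogen reaches glutamate, aspartate and urea, and the carbon skeleton enters energy metabolism or glucose synthesis. Tyrosine is degraded in a chain that begins with tyrosine aminotransferase and ends at fumarate and acetoacetate, tryptophan degradation begins with tryptophan dioxygenase, and several of these genes are classical targets of glucocorticoids, glucagon and feeding state.

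The order of enzymes along the tyrosine chain is *Tat* (tyrosine aminotransferase), *Hpd* (4-hydroxyphenylpyruvate dioxygenase), *Hgd* (homogentisate dioxygenase) and *Fah* (fumarylacetoacetate hydrolase). *Tdo2* encodes tryptophan dioxygenase, and *Sds* encodes serine dehydratase, which turns serine into pyruvate. *Gpt* and *Gpt2* encode the cytosolic and the mitochondrial alanine aminotransferase, and *Got1* encodes the cytosolic aspartate aminotransferase. In the GRCm38 (mm10) annotation of GENCODE, the protein-coding genes lie at chr8:109990437-109999803 (*Tat*), chr5:123171807-123182727 (*Hpd*), chr16:37580153-37632020 (*Hgd*), chr7:84585159-84606722 (*Fah*), chr3:81957090-81976202 (*Tdo2*), chr5:120476526-120483932 (*Sds*), chr15:76695716-76699686 (*Gpt*), chr8:85492576-85527560 (*Gpt2*) and chr19:43499752-43524605 (*Got1*). *Hpd* overlaps the lincRNA *Gm26745* on its own strand, and *Hpd*, *Hgd* and *Sds* overlap genes annotated on the opposite strand. Whether counting used strand is not stated in the sources used here, so reads of those partners cannot be told apart from theirs.

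RefSeq promoter sequences (GRCm38.p6) were matched by symbol for 7 of the 9 genes, which leaves out *Sds* and *Gpt*. The 250 bases before the start of *Tat* (chr8:109990186-109990435, plus strand), *Got1* (chr19:43524606-43524855, minus strand) and *Gpt2* (chr8:85492326-85492575, plus strand) are shown because these 3 genes moved together between the libraries described next. Each reads 5′ to 3′ on the strand of the gene, and capitals mark CCAAT or its reverse complement ATTGG.
Tat: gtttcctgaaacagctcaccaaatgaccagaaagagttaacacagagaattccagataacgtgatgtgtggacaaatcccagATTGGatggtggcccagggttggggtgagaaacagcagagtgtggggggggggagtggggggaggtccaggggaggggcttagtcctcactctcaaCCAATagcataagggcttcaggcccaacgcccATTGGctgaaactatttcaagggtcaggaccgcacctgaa
Got1: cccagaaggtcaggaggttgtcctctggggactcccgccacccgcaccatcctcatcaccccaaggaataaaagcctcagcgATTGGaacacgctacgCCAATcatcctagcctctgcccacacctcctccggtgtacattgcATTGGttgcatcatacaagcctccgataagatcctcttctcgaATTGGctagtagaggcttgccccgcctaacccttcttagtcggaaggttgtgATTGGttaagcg
Gpt2: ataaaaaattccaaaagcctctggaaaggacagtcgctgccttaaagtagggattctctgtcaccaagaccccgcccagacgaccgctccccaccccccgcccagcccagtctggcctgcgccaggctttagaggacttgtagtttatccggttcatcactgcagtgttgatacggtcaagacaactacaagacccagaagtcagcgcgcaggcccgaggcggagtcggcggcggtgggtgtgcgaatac
The CCAAT letters, searched on both strands, stood 5 times before *Got1*, 3 times before *Tat*, 2 times before *Hgd*, 1 time before *Tdo2* and 0 times before *Gpt2*, *Hpd* and *Fah*. Of all 32851 promoter windows of this length, 33.8% held at least 1 such match, 2.79% held 3 or more and 0.213% held 5 or more. The letters TATAAA occurred in the windows of *Tdo2* and *Hgd*, and in 12.4% of all windows. TGTTCT, a core of glucocorticoid response elements, and TGACG, a core of cAMP response elements, occurred in none of the 7 windows and in 16.1% and 17.8% of all windows. A match of letters is a description of the sequence and not a binding site, and none of the searched motifs overlapped another in the printed windows.

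Depth was 6171051 to 9157362 counts per library, and the lowest count of any of the 9 genes in any library was 208, for *Got1* in WT Control replicate 1. Counting error there was 6.93%, against a common biological coefficient of variation of 22.7%, so the spread between libraries and not the depth set the precision. Levels are counts per 1000000 library counts (CPM), with library sizes scaled by TMM, a normalization that assumes most genes to be equal between libraries, and CPM per kb when 2 genes are compared. *Elf4* itself stood at 0.895 to 4.51 CPM in the 8 livers, which does not check the labels, since the deletion is in the intestine. Hepatocyte markers were abundant, and their summed level over 10 genes was 49202 to 93146 CPM. The 2 of 6 pancreatic acinar, 1 of 5 kidney proximal tubule, 2 of 5 skeletal muscle and 3 of 6 neutrophil markers in the table summed to at most 9.55, 0.410, 2.12 and 11.3 CPM. The 3 of 6 intestinal epithelium markers in the table summed to 165 to 255 CPM, the 5 bile duct markers to 67.3 to 182 CPM and the 5 red blood cell markers to 87.4 to 229 CPM. The intestinal sum was nearly all *Lgals4* (92.6 to 219 CPM) and *Fabp2* (33.6 to 111 CPM), with *Vil1* at 0.253 to 1.95 CPM. Counts from genes of the mitochondrial genome made up 33.7% and 23.4% of the WT Control libraries, 12.5% and 10.8% of the WT EtOH libraries and 18.3% to 22.1% of the Elf4-/- libraries. On principal component 1, with 51.6% of the variance, Elf4-/- EtOH replicate 2 was at 17.4. The other EtOH libraries were at 52.0 to 58.2 and the Control libraries at -60.5 to -30.0. Principal component 2, with 12.9% of the variance, set Elf4-/- EtOH replicate 1 apart from the other 7 libraries. For the 9 genes, the edgeR differences between genotypes under alcohol are given with and without that library, and the DESeq2 calls only with it. For the marker lists and the other amino acid genes, the medians and the counts at an unadjusted p include that library.

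*Hpd*, of the tyrosine chain, had the highest mean level per length in every group. In Elf4-/- EtOH its mean of 644 ± 238 CPM per kb could not be ordered against 625 ± 455 for *Tat*. There *Tat* was above *Hpd* in replicate 1, at 946 against 813 CPM per kb. In WT Control the mean level per length was 695 ± 58.6 CPM per kb (SD, n = 2) for *Hpd*, 374 ± 217 for *Tat*, 332 ± 13.8 for *Fah*, 187 ± 41.6 for *Sds*, 148 ± 9.88 for *Tdo2*, 144 ± 46.9 for *Hgd*, 85.1 ± 6.33 for *Gpt*, 47.6 ± 11.8 for *Gpt2* and 23.9 ± 12.2 for *Got1*. The 2 libraries of *Tat* spanned the level of *Fah*, and those of *Hgd* spanned the level of *Tdo2*, so neither pair could be ordered. In WT EtOH *Tdo2* stood second at 275 ± 33.1 CPM per kb, behind *Hpd* at 433 ± 32.6. *Sds*, the fourth gene in WT Control, was at 34.3 ± 16.8 CPM per kb in WT EtOH, with *Gpt* at 36.8 ± 3.47 and *Gpt2* at 30.9 ± 7.85. The 2 WT EtOH libraries of *Sds*, at 46.1 and 22.4 CPM per kb, spanned both other genes, so these could not be ordered. In Elf4-/- EtOH *Got1* had the mean level 81.5 ± 64.6 CPM per kb, an SD nearly as large as the mean.

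**Figure D1:**
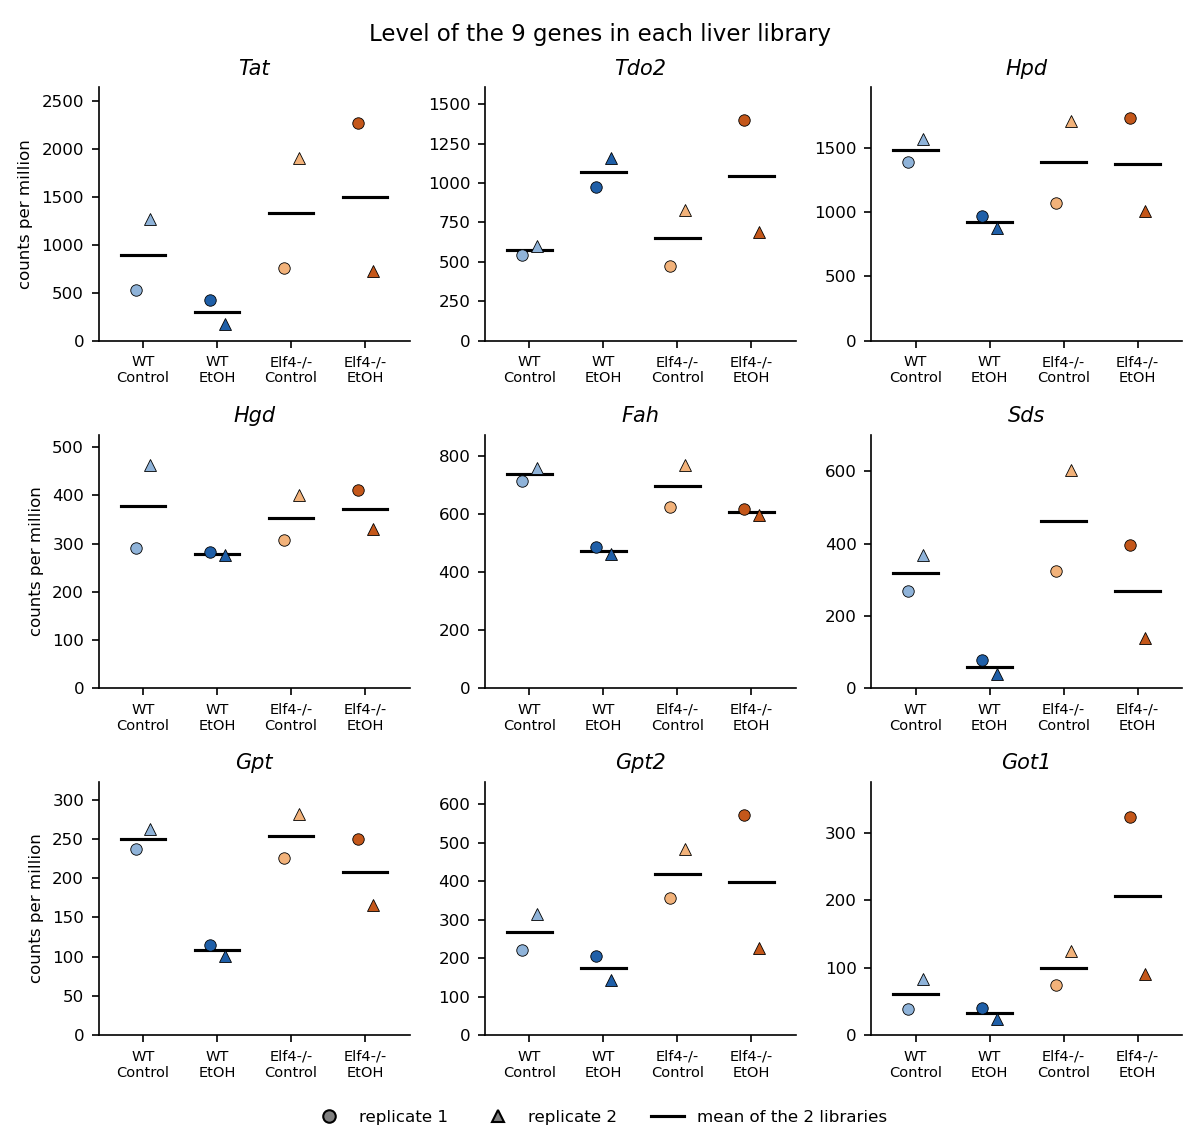
Level in CPM (vertical axes, linear, from 0) of the 9 genes in each of the 8 liver libraries by group, with circles for replicate 1, triangles for replicate 2 and a bar for the mean of the 2 libraries. WT EtOH replicate 2 holds the lowest level of 8 of the 9 genes, and Elf4-/- EtOH replicate 1 the highest level of 5.

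The 9 genes differed in how far they ranged over the 8 libraries. *Sds* spanned 15.9-fold from lowest to highest library, *Got1* 13.1-fold and *Tat* 12.8-fold, while *Fah* spanned 1.67-fold and *Hgd* 1.68-fold. *Gpt2* spanned 3.99-fold, *Tdo2* 2.94-fold, *Gpt* 2.79-fold and *Hpd* 1.98-fold. WT EtOH replicate 2 was the lowest library for 8 of the 9 genes, *Tdo2* being the exception.

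Replicates of 1 group differed in the same direction for nearly every one of the 9 genes. In Elf4-/- EtOH, 9 of 9 were higher in replicate 1, with a median difference of 1.03 on the log2 scale against -0.01 over all tested genes. In WT Control and in Elf4-/- Control, 0 of 9 were higher in replicate 1, with median differences of -0.46 and -0.67. In WT EtOH, 8 of 9 were higher in replicate 1, with a median of 0.19. The differences between replicates were widest for *Tat* (1.24 to 1.64 in absolute log2 units in WT EtOH and Elf4-/- EtOH), *Got1* (1.82 in Elf4-/- EtOH) and *Sds* (1.51 in Elf4-/- EtOH). The replicate difference of *Fah* in the same group was 0.04. Of the 66 other amino acid genes, 42 were higher in Elf4-/- EtOH replicate 1 and their median difference was 0.28. Metallothionein *Mt1*, a gene induced by glucocorticoids and metals, was at 1059 CPM in Elf4-/- EtOH replicate 1 and 7.56 CPM in replicate 2, and *Igfbp1*, a secreted IGF-binding protein induced by fasting, at 437 and 11.5 CPM. The part of these differences between livers in the levels of the 9 genes was not tested.

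The first comparison asked how alcohol changed these genes in WT livers. *Sds* fell 5.46-fold and *Gpt* fell 2.31-fold, and the other 7 genes did not pass the test. *Tdo2* was the exception in direction, with a positive estimate, while the other 8 estimates were negative.

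*Gpt*, the source of the cytosolic ALT, stood at 237 and 263 CPM (WT Control), 115 and 101 (WT EtOH), 226 and 281 (Elf4-/- Control) and 250 and 165 (Elf4-/- EtOH). Both WT EtOH libraries lay below the other 6, and the other groups overlapped each other. The log2 fold change in WT was -1.21 ± 0.25 (SE, n = 2 per group), with an adjusted p of 0.0102 by the edgeR quasi-likelihood test after Benjamini-Hochberg correction.

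*Sds* was at 267 and 367 CPM (WT Control), 78.1 and 38.0 (WT EtOH), 324 and 603 (Elf4-/- Control) and 395 and 139 (Elf4-/- EtOH). The WT EtOH libraries again lay below all others, and the Elf4-/- EtOH libraries stood far apart from each other. The log2 fold change in WT was -2.45 ± 0.50 (SE; edgeR adjusted p = 0.0116). Relative to *Sdsl*, a related serine dehydratase-like gene, the ratio of counts per exon base was 27.5 and 31.5 in WT Control against 7.59 and 6.22 in WT EtOH, so the fall of *Sds* did not depend on the scaling between libraries.

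These 2 of 9 genes were called lower, where 10.8% of all tested genes were called lower and 10.8% higher in the same comparison (edgeR adjusted p under 0.05). The median log2 fold change of the 9 genes was -0.68, against 0.01 over all tested genes. For 7 of the 9 genes both WT EtOH libraries were below both WT Control libraries, as were 32.7% of all tested genes. Scaling by library totals moved the median of all genes to 0.44 and the calls from 1518 higher and 1507 lower to 3422 higher and 634 lower, and *Gpt* and *Sds* were still called lower at -0.78 and -2.04. Neither call held when WT EtOH replicate 2 was left out (adjusted p = 0.0944 and 0.0981 for *Gpt* and *Sds* by edgeR). That fit called 4.28% of all tested genes in either direction. *Sds* alone was called without WT EtOH replicate 1 (6.61% of all genes called), and *Gpt* alone without WT Control replicate 2 (11.9%). Of the 9 genes 5 were called without Elf4-/- EtOH replicate 1 (27.1% of all genes) or replicate 2 (27.3%), 4 by DESeq2 (20.1%) and 4 in a fit of the 4 WT libraries alone (26.5%).

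*Tdo2* was at 547 and 601 CPM (WT Control), 977 and 1158 (WT EtOH), 476 and 831 (Elf4-/- Control) and 1399 and 687 (Elf4-/- EtOH). The WT groups did not overlap, with the alcohol-fed libraries higher, whereas the Elf4-/- groups overlapped. The log2 fold change in WT was 0.90 ± 0.37 (edgeR adjusted p = 0.112), and it was called by DESeq2 (adjusted p = 0.0460).

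In the tyrosine chain, *Tat* was at 530 and 1269 CPM (WT Control), 421 and 178 (WT EtOH), 759 and 1909 (Elf4-/- Control) and 2275 and 728 (Elf4-/- EtOH). The 2 control groups and Elf4-/- EtOH overlapped, and WT EtOH lay below them. Its log2 fold change in WT was -1.59 ± 0.64 (edgeR adjusted p = 0.113), with an SE larger than that of any other of the 9 genes. *Fah*, the last step, had 714 and 758 CPM on the control diet and 486 and 460 CPM under alcohol in WT, a log2 fold change of -0.64 ± 0.23 (edgeR adjusted p = 0.0696; DESeq2 adjusted p = 0.0282). *Hpd* and *Hgd*, the steps between, had estimates of -0.68 ± 0.33 and -0.44 ± 0.27 that did not pass (edgeR adjusted p = 0.164 and 0.280). *Hpd* ranged from 873 to 1729 CPM and *Hgd* from 276 to 464 CPM over the 8 libraries.

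**Figure D2:**
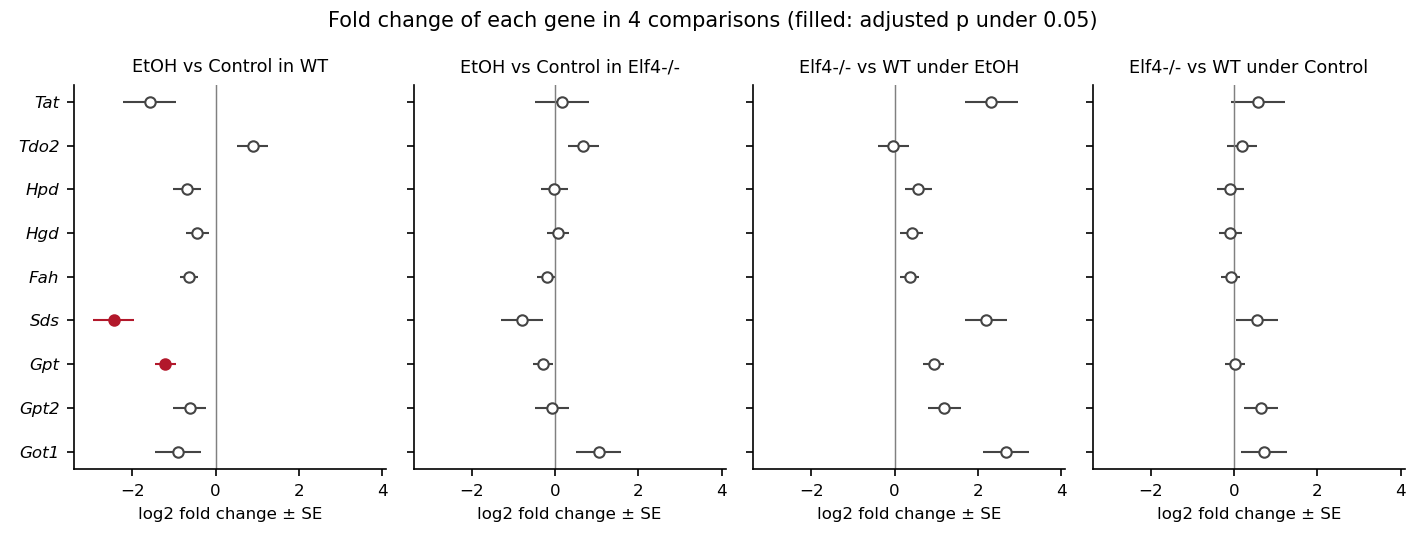
Log2 fold change with its standard error (horizontal axes) of the 9 genes in 4 comparisons from the edgeR model, 2 libraries per group, with filled red points where the adjusted p was under 0.05. *Sds* at -2.45 and *Gpt* at -1.21 in the WT diet comparison are the 2 filled points.

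Markers of other liver cells moved in the same WT comparison. All 6 Kupffer cell markers and all 6 sinusoidal endothelial markers were called higher in WT EtOH, as were 4 of 6 hepatic stellate cell markers. The summed Kupffer level was 151 to 199 CPM in WT Control and 505 to 558 CPM in WT EtOH, the summed endothelial level 46.0 to 78.9 and 231 to 280 CPM, and the summed stellate level 28.0 to 73.5 and 244 to 318 CPM. None of these markers was at 0 in all libraries. Of 10 hepatocyte markers 1 was called lower by edgeR and 5 by DESeq2. Their median edgeR estimate was -0.65 on the log2 scale, with 8 estimates negative and 2 positive. Their summed level was 68457.9 to 93145.8 CPM in WT Control and 49202 to 56846.5 CPM in WT EtOH. Most of that gap came from *Alb* (means of 36002.7 and 23455.2 CPM) and *Apoa1* (16226.5 and 3199.1 CPM). The 2 with positive estimates were *Trf* (3966.8 and 5710.1 CPM) and *Apoa2* (8395.3 and 8948.3 CPM). Fewer hepatocytes and less RNA of a gene per hepatocyte cannot be told apart in bulk liver, and the part of these cells in the falls of *Gpt* and *Sds* was not tested.

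Genes that mark the 2 ends of the liver lobule moved as well. Of 6 periportal hepatocyte markers 4 were called lower in WT EtOH (*Cdh1*, *Hal*, *Pck1* and *Gls2*), and their summed level was 4856 to 6297 CPM in WT Control and 1248 to 2443 CPM in WT EtOH. Of 7 pericentral markers 4 were called higher and 1 lower, and their sum was 4657 to 5821 and 10507 to 11329 CPM. *Glul*, the glutamine synthetase of the pericentral layer, rose by 1.74 ± 0.26 on the log2 scale in WT (edgeR adjusted p = 0.00354) and by 1.58 ± 0.26 in Elf4-/- (edgeR adjusted p = 0.0223). *Hal* and *Gls2* are also among the other amino acid genes described below, and *Oat* is among the pericentral markers.

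The second comparison asked the same of Elf4-/- livers, and none of the 9 genes was called. No member passed at an unadjusted p under 0.05 in edgeR or at the adjusted threshold in DESeq2, where 1.71% of all tested genes were called higher and 1.18% lower by edgeR. The largest estimates were 1.05 ± 0.54 for *Got1* (edgeR adjusted p = 0.300) and -0.80 ± 0.50 for *Sds* (edgeR adjusted p = 0.389). The median of the 9 estimates was -0.02, against 0.01 over all genes. For 8 of the 9 genes the Elf4-/- EtOH and Elf4-/- Control libraries overlapped, and *Fah* alone had both alcohol-fed libraries (616 and 597 CPM) below both controls (622 and 770 CPM), as did 26.3% of all tested genes.

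The Elf4-/- estimates of *Got1*, *Tat*, *Hpd*, *Hgd* and *Gpt2* changed sign when 1 library was left out, and *Got1* is shown in full. It was at 38.8 and 82.6 CPM (WT Control), 40.6 and 24.6 (WT EtOH), 74.6 and 125 (Elf4-/- Control) and 323 and 91.0 (Elf4-/- EtOH). Elf4-/- EtOH replicate 1 stood above every other library, and replicate 2 lay between the 2 Elf4-/- Control libraries. Without replicate 2 the rise in Elf4-/- was 1.68 on the log2 scale and was called (edgeR adjusted p = 0.0225), in a fit that called 11.4% of all tested genes in either direction, and without replicate 1 the estimate was -0.13.

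The third comparison asked how the livers of the 2 genotypes differed under alcohol. No member was called by edgeR at an adjusted p under 0.05, a rule that called 0.143% of all tested genes in either direction. At an unadjusted p under 0.05, 5 of the 9 were higher in Elf4-/- EtOH, namely *Got1*, *Tat*, *Sds*, *Gpt2* and *Gpt*, where 6.18% of all tested genes were. The log2 differences were 2.67 ± 0.55 for *Got1* (edgeR adjusted p = 0.150), 2.33 ± 0.64 for *Tat* (0.262), 2.20 ± 0.50 for *Sds* (0.188), 1.19 ± 0.40 for *Gpt2* (0.341) and 0.94 ± 0.25 for *Gpt* (0.234). DESeq2 called 3 of the 9 higher, *Sds* (adjusted p = 0.000158), *Got1* (0.0410) and *Gpt* (0.0437), where it called 1.06% of all genes higher.

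*Gpt2*, the mitochondrial alanine aminotransferase, was at 222 and 316 CPM (WT Control), 206 and 143 (WT EtOH), 356 and 483 (Elf4-/- Control) and 571 and 226 (Elf4-/- EtOH). The 2 Elf4-/- EtOH libraries stood on either side of both Elf4-/- Control libraries. For 8 of the 9 genes both Elf4-/- EtOH libraries were above both WT EtOH libraries, as were 20% of all tested genes, and *Tdo2* was the gene that overlapped. The median difference of the 9 genes was 0.94, against 0.00 over all tested genes. This comparison shares its WT EtOH libraries with the diet comparison in WT, so the low WT EtOH levels enter both.

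Leaving out either Elf4-/- EtOH library moved these differences. Without replicate 2, edgeR called 5 of the 9 higher, *Got1* at 3.31, *Tat* at 2.92, *Sds* at 2.76, *Gpt2* at 1.71 and *Gpt* at 1.20 on the log2 scale, with 1.84% of all tested genes called higher in that fit. Without replicate 1, none was called, and the same genes were at 1.49, 1.29, 1.27, 0.38 and 0.62. The estimate of *Tdo2* was 0.38 without replicate 2 and -0.63 without replicate 1. In these fits the remaining library was assumed to vary like those of the other groups.

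**Figure D3:**
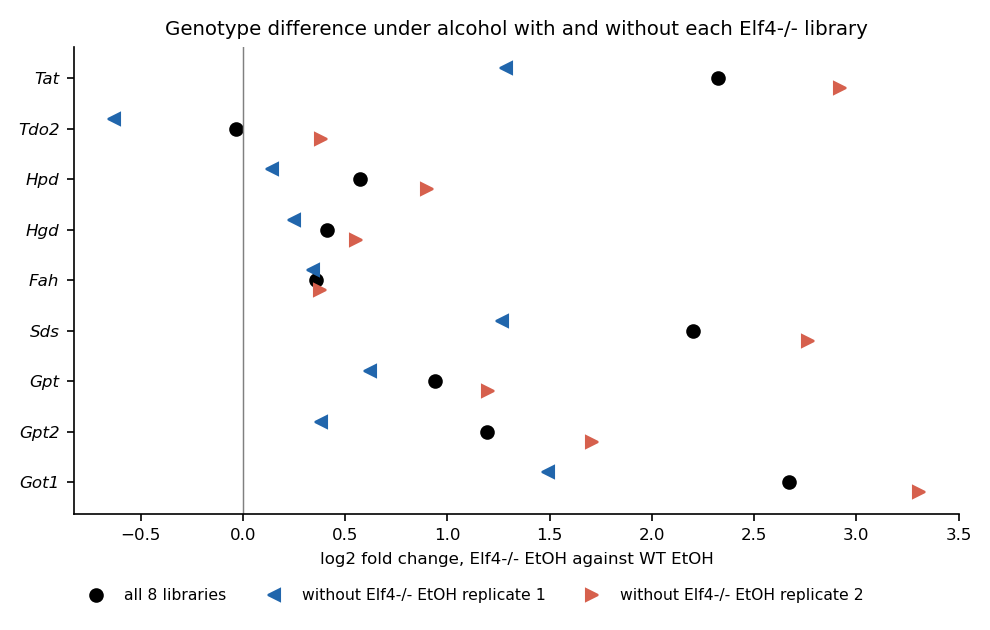
Log2 fold change of the 9 genes between Elf4-/- EtOH and WT EtOH (horizontal axis) with all 8 libraries (black circles), without Elf4-/- EtOH replicate 1 (blue) and without replicate 2 (red). Every difference is larger without replicate 2, from 0.37 for *Fah* to 3.31 for *Got1*, and *Tdo2* turns from -0.63 to 0.38.

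Markers of other cells and of lobule position were also compared between the same groups. Of 7 pericentral markers 0 was called by edgeR and 1 higher by DESeq2 (*Oat*), with an edgeR median of 0.13 on the log2 scale. Of 6 hepatic stellate cell markers 0 was called by edgeR or DESeq2 and 0 had an unadjusted p under 0.05, with an edgeR median of 0.03. Of 6 Kupffer cell markers, 2 were called lower in Elf4-/- EtOH than in WT EtOH, and their summed level was 189 to 199 CPM against 505 to 558 CPM. Of 6 sinusoidal endothelial markers 0 was called by edgeR or DESeq2 and 2 were lower at an unadjusted p under 0.05, with a median of -0.78 on the log2 scale and sums of 117 to 191 against 231 to 280 CPM. Of 6 periportal hepatocyte markers 0 was called by edgeR and 1 higher by DESeq2, 3 were higher at an unadjusted p under 0.05 in edgeR, the median was 0.95, and the sums were 2476 to 4158 against 1248 to 2443 CPM. The glucocorticoid target list, with 7 genes that include *Mt1* and *Mt2*, summed to 2196 CPM in Elf4-/- EtOH replicate 1 and 208 CPM in replicate 2, against 328 to 397 CPM in WT EtOH, and 0 of its 7 genes was called by edgeR (2 at an unadjusted p under 0.05). *Mt1* and *Mt2* made up most of the gap between these libraries, with 1059 and 702 CPM in replicate 1 and 7.56 and 1.46 CPM in replicate 2. In the rest of the list, *Fkbp5* (165 in replicate 1 and 25.3 in replicate 2), *Zbtb16* (22.0 and 0.796) and *Sgk1* (45.4 and 15.1) were also higher in replicate 1. *Tsc22d3* (141 and 102) and *Per1* (61.5 and 56.0) differed less. The fasting and glucagon list of 10 genes summed to 6798 and 4046 CPM in the same Elf4-/- libraries and to 3904 to 5203 CPM in WT EtOH, with 0 called and 1 higher and 1 lower at an unadjusted p under 0.05. In the WT diet comparison these lists had 1 of 7 called higher (*Sgk1*), and 1 of 10 higher (*Fgf21*) with 2 lower (*Pck1* and *Ppargc1a*). Their part in the levels of *Tat*, *Got1* and *Sds* was not tested.

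Under the control diet the genotypes were not told apart by these genes. None of the 9 was called by edgeR or DESeq2, and none had an unadjusted p under 0.05 in edgeR, in a comparison where 0.0143% of all genes were called. The estimates ran from -0.09 ± 0.27 for *Hgd* to 0.72 ± 0.55 for *Got1*, with a median of 0.19. *Gpt2* alone did not overlap, where 20% of all tested genes were higher without overlap, at 356 and 483 CPM in Elf4-/- Control against 222 and 316 CPM in WT Control (0.64 ± 0.40, edgeR adjusted p = 0.793). Scaling by library totals turned the 3 small negative estimates positive, those of *Hpd*, *Hgd* and *Fah*.

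Whether the diet effect differed between the genotypes was tested as an interaction. None of the 9 was called by edgeR or DESeq2, and edgeR called 0% of all tested genes. At an unadjusted p under 0.05, *Gpt* (0.92 ± 0.35), *Got1* (1.95 ± 0.78) and *Sds* (1.65 ± 0.71) were higher, where 4.94% of all tested genes were, and their edgeR adjusted p-values were 0.424, 0.446 and 0.477. The calls of *Gpt* and *Sds* in WT and not in Elf4-/- therefore do not show a difference between the genotypes.

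Ratios within a library need no scaling and set each cytosolic enzyme against its mitochondrial counterpart. *Gpt* to *Gpt2*, in counts per base of exon, was 2.05 and 1.60 (WT Control), 1.08 and 1.35 (WT EtOH), 1.22 and 1.12 (Elf4-/- Control) and 0.839 and 1.40 (Elf4-/- EtOH). WT Control lay above the other 3 groups, which overlapped. *Got1* to *Got2* was 0.384 and 0.574 (WT Control), 0.258 and 0.169 (WT EtOH), 0.598 and 0.953 (Elf4-/- Control) and 1.67 and 0.632 (Elf4-/- EtOH). Both Elf4-/- groups lay above both WT groups, and WT EtOH was lowest. *Got2*, the mitochondrial aspartate aminotransferase, had a log2 difference of 0.15 ± 0.25 between the genotypes under alcohol (edgeR adjusted p = 0.883). In that comparison the ratio moved with *Got1*. Between the WT groups *Got1* overlapped, while *Got2* was at 192 and 274 CPM in WT Control and 299 and 276 CPM in WT EtOH. The separation of the WT ratios therefore did not rest on *Got1* alone. With 2 libraries per group a two-sided exact permutation test cannot go below p = 0.333, and no test was made on the ratios.

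**Figure D4:**
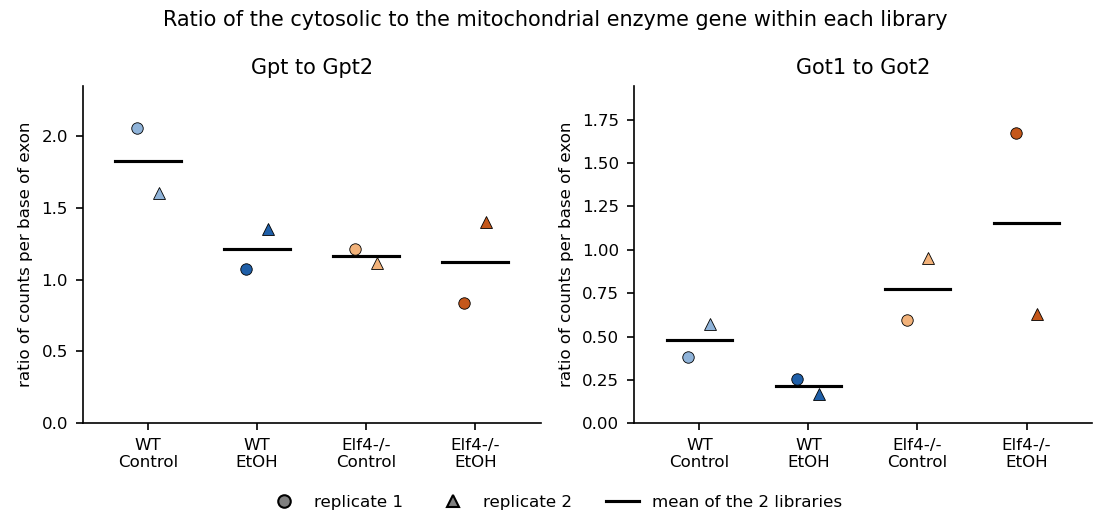
Ratio of counts per base of exon (vertical axes, from 0) of the cytosolic to the mitochondrial enzyme gene in each library, for alanine aminotransferase (left) and aspartate aminotransferase (right), with a bar for the mean of the 2 libraries. *Got1* to *Got2* runs from 0.169 in WT EtOH replicate 2 to 1.67 in Elf4-/- EtOH replicate 1.

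The other genes of amino acid breakdown were described from a list of 68, of which 66 were in the table and all 66 were tested. In WT, alcohol was followed by 18 lower and 5 higher, with a median of -0.41 on the log2 scale. Of all tested genes, 10.8% were called lower and 10.8% higher in that comparison. All 4 genes of histidine breakdown were lower, by 1.51 to 1.68, among them *Uroc1* (urocanate hydratase) and *Hal* (histidine ammonia-lyase). Of 15 genes of aromatic and tryptophan catabolism 5 were lower and 0 higher, of 7 other transaminases 3 lower and 1 higher, and of 20 branched-chain genes 3 lower and 2 higher. Of the remaining genes, 1 of 6 in serine, glycine and threonine breakdown was lower and 1 higher, 1 of 4 in lysine breakdown and 1 of 6 in proline, glutamine and glutamate breakdown were lower, and 1 of 4 in cysteine breakdown was higher. Scaling by library totals gave 11 lower and 10 higher, where it called 634 of all 13993 tested genes lower and 3422 higher.

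Among the called genes the 5 largest falls were those of *Agxt* (alanine-glyoxylate aminotransferase, -2.36 ± 0.39), *Gls2* (liver glutaminase, -1.95 ± 0.29), *Kyat1* (kynurenine aminotransferase, -1.69 ± 0.25), *Uroc1* (-1.68 ± 0.22) and *Amdhd1* (imidazolonepropionase, -1.65 ± 0.28), each with an edgeR adjusted p of 0.00511 or less. *Agxt* was at 114 and 155 CPM in WT Control and 38.7 and 13.8 CPM in WT EtOH. The rises included those of *Csad* (cysteine sulfinate decarboxylase of taurine synthesis, 2.68 ± 0.59), *Pccb* (a propionyl-CoA carboxylase subunit, 1.29 ± 0.23), *Oat* (ornithine aminotransferase, 1.10 ± 0.33) and *Srr* (serine racemase, 0.82 ± 0.17).

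In Elf4-/-, 3 of the 66 were called higher and 0 lower under alcohol, where 1.71% of all tested genes were called higher and 1.18% lower. *Oat* rose by 2.33 ± 0.33 and *Srr* by 0.92 ± 0.17 (edgeR adjusted p = 0.0162 and 0.0276). *Oat* was at 494 and 567 CPM in Elf4-/- Control and 3490 and 1830 CPM in Elf4-/- EtOH, so both alcohol-fed libraries stood above both controls and above both WT EtOH libraries (1070 and 747 CPM). In a fit of the 4 libraries alone, none of the 66 was called. That fit called 22 of all 13257 tested genes higher and 18 lower.

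Between the genotypes under alcohol, and in the interaction, 0 of the 66 was called by edgeR. At an unadjusted p under 0.05 there were 33 higher and 3 lower in Elf4-/- EtOH, with a median of 0.59. By the same rule 865 of all 13993 tested genes were higher and 605 lower. DESeq2 called 7 of the 66 higher, among them *Prodh*, *Agxt*, *Oat*, *Uroc1*, *Gls2* and *Agxt2*, where it called 1.06% of all genes higher. In the interaction 20 were higher and 1 lower at an unadjusted p under 0.05, against 691 higher and 720 lower of all tested genes. DESeq2 called 4 in the interaction, where it called 83 of all tested genes higher and 28 lower. Under the control diet 0 was called by edgeR or DESeq2, with 1 higher and 2 lower at an unadjusted p under 0.05.

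**Figure D5:**
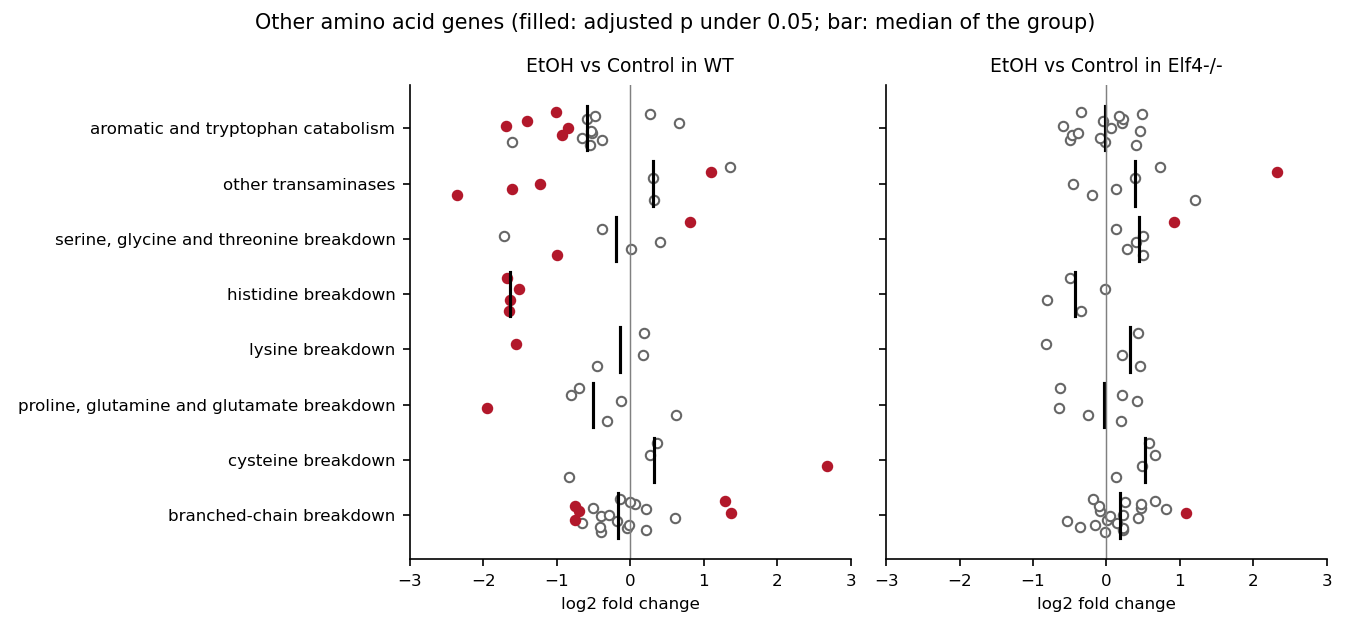
Log2 fold change under alcohol (horizontal axes) of the 66 other amino acid genes in WT (left) and Elf4-/- (right) by group of genes, filled red where the adjusted p was under 0.05, with a bar for the median of each group. In WT 23 points are filled, 18 of them below 0, and in Elf4-/- 3 are filled, all above 0.

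Genes whose levels over the 8 libraries were most like those of *Gpt* and *Got1* were taken from the 9398 tested genes whose mean count reached 50, by Pearson's correlation of log2 CPM. The 8 points share the diet and genotype groups, so the correlations are given as a description. For *Gpt* they were *Bhmt2* (r = 0.994), a methyltransferase of methionine metabolism, *Supt20* (0.989) and *Fam160b2* (0.988). *Bhmt2* was at 211 and 223 CPM in WT Control and 101 and 87.9 CPM in WT EtOH. For *Got1* they were *Nqo2* (r = 0.988), a quinone reductase, *Coa6* (0.974) and *Aldh1l1* (0.968), the folate enzyme 10-formyltetrahydrofolate dehydrogenase. *Aldh1l1* was at 948 and 633 CPM in Elf4-/- EtOH and 404 and 297 CPM in WT EtOH.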

How the data were processed

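Bulk RNA-seq was analysed from 8 mouse liver libraries, 2 in each of 4 groups of genotype and diet taken from the labels. The deposited values are raw counts per gene: the authors mapped paired-end reads to mm10 with HISAT2, used SAMtools and counted with HTSeq, with DESeq2 named as well, and versions and strand setting are not given in the sources used here. Counts of 6171051 to 9157362 per library were filtered by group, scaled by TMM and tested in 1 model of all 8 libraries with edgeR 4.0.16 (R 4.3.3) quasi-likelihood tests, in 5 contrasts, with Benjamini-Hochberg adjustment over 13993 genes and a threshold of 0.05. The alternatives were DESeq2 1.42.0, other size factors, no filter, only the 4 libraries compared, each library left out, a replicate block and no mitochondrial genome genes. Named were all 9 genes, the 5 largest called rises and falls among the other amino acid genes in WT, those called elsewhere, and 3 genes most like *Gpt* and *Got1*. Some genes that this rule names are counted but not reported here by name. The genes, lists and tests were chosen with earlier results of these data known. *Elf4*, *Mt1*, *Igfbp1*, *Glul*, *Sdsl*, *Got2*, called list members and some other list members were named after their values were seen.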

Additional observations from a re-analysis of the deposited data

How the results depend on the processing

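The count of the 9 genes called in WT by diet, 2 by edgeR, was 4 with DESeq2, 4 with only the 4 libraries compared and 3 with scaling by library totals, and it was 0 to 5 when 1 library was left out, with 0 without WT EtOH replicate 2, a fit that called 4.28% of all genes, and 5 without Elf4-/- EtOH replicate 1 or 2, fits that called 27.1% and 27.3%. In Elf4-/- by diet the count of 0 became 0 to 1, and between genotypes under alcohol 3 with DESeq2 and 0 to 5 with 1 library left out. Of the 66 other amino acid genes, the 23 calls in WT became 10 to 34, and the 3 calls in Elf4-/- became 6 with DESeq2, 0 with only the 4 libraries compared and 0 to 9 with 1 library left out. Between genotypes under alcohol the count of 0 became 7 with DESeq2, 1 with no low-count filter and 0 to 11 with 1 library left out, and in the interaction 4 with DESeq2 and 0 to 2 with 1 library left out. In WT by diet DESeq2 called 20.1% of all tested genes in either direction, and the fit with only the 4 libraries compared called 26.5%. Scaling by library totals called 3422 of all 13993 tested genes higher and 634 lower in WT by diet. The cause of these changes in the counts was not tested.

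Scaling by library totals turned the estimates under the control diet to 0.12 for *Hpd*, 0.12 for *Hgd* and 0.14 for *Fah*, and the interaction of *Fah* to -0.0145, and it moved the median of all genes to -0.23 between genotypes under alcohol, 0.24 under the control diet and -0.47 in the interaction. Leaving out 1 library changed the sign of 14 estimates, none of them called with all 8 libraries. In Elf4-/- by diet the range was -0.87 to 0.98 for *Tat*, -0.46 to 0.35 for *Hpd*, -0.12 to 0.27 for *Hgd*, -0.89 to 0.43 for *Gpt2* and -0.13 to 1.68 for *Got1*. Between genotypes under alcohol it was -0.63 to 0.38 for *Tdo2*. Between genotypes under the control diet it was -0.24 to 1.34 for *Tat*, -0.27 to 0.54 for *Tdo2*, -0.46 to 0.21 for *Hpd*, -0.39 to 0.29 for *Hgd*, -0.239 to 0.0715 for *Fah* and -0.14 to 0.18 for *Gpt*. In the interaction it was -0.82 to 0.24 for *Tdo2* and -0.27 to 1.06 for *Gpt2*.

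The groups share replicate numbers, but replicate deviations correlated by only -0.13 to 0.11 between groups, so the numbers were not used as pairs. With the replicate block 2 of the 9 genes were called in WT and 0 in the other comparisons, and 22 and 2 of the other amino acid genes in WT and Elf4-/-. With 2 libraries per group, a gene that missed the threshold is not shown to be unaltered.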
